A study of Drosophila melanogaster with 15 samples.

Results

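The transcription units of chromosome 4, the smallest autosome of Drosophila melanogaster, were taken from the authors' dm6 annotation of transcription units by their chromosome column alone. The choice gave 109 of the 15991 units of the annotation, with 111 of its 17698 genes and 339 of its 34736 listed transcripts. A unit is a stretch of 1 strand that holds a gene, or several genes of that strand, joined by a rule not given in the sources used here. Chromosome 4 is set beside X (2399 units) and beside the 4 large autosomal arms 2L, 2R, 3L and 3R (13340 units together).

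The annotation belongs to an mNET-seq study, in which RNA held by engaged RNA polymerase is sequenced, of embryos at stage 15. The 15 labelled samples comprise 4 female MOF, 4 male MOF, 4 female control and 3 male control libraries. MOF embryos were depleted of maternal mof by RNA interference from a UAS-mof RNAi construct, control embryos carried a control RNAi, and the driver is not given in the sources used here. All groups were kept at 25 °C, and 6000 embryos were pooled for a preparation. The table holds positions, strands, gene names and transcript identifiers and no value of any library, so read depth is unknown and no comparison of MOF with control embryos or of males with females was made. What follows describes a single annotation, and no test was run on it.

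Chromosome 4, the dot chromosome or Muller element F, is packed along most of its length with heterochromatin protein 1a and methylated histone H3, yet its genes are transcribed. The protein POF binds those genes and is known to raise their transcription in both sexes, as the MSL complex, which holds MOF, does for the single X of males. Its genes are known for the regulators of eye, wing and body wall patterning, and for proteins of the synapse.

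Among the 111 genes of chromosome 4, 79 encode proteins, 13 are long non-coding RNA genes, 10 antisense RNA genes, 6 pseudogenes, 2 microRNA genes and 1 a small nucleolar RNA gene. Protein-coding genes made up 71.2% of its genes, against 81.4% on X and 78.5% on the large arms. Antisense RNA genes made up 9.01%, against 2.58% on X and 2.78% on the large arms, and pseudogenes 5.41%, against 1.98% on X and 1.10% on the large arms. No transfer RNA, ribosomal RNA or spliceosomal RNA gene stood on chromosome 4. By RefSeq type X held 24 transfer RNA genes, 2 ribosomal RNA genes and 2 small nuclear RNA genes, and the large arms held 266, 96 and 29. Of the units, 30 of 109 (27.5%) lacked a protein-coding gene, against 15.8% on X and 18.2% on the large arms. Counted by distance, chromosome 4 had 23.6 such units per Mb, X 16.3 and the large arms 22.5. Single large arms ran from 18.8 on 3R to 28.5 on 2L, so chromosome 4 lay within their range. Units with a protein-coding gene numbered 62.2 per Mb on chromosome 4, 87.2 on X and 101.3 on the large arms. Against the large arms together, the higher non-coding share on chromosome 4 went mainly with fewer coding units per Mb. Against X it went with both fewer coding and more non-coding units per Mb.

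**Figure D1:**
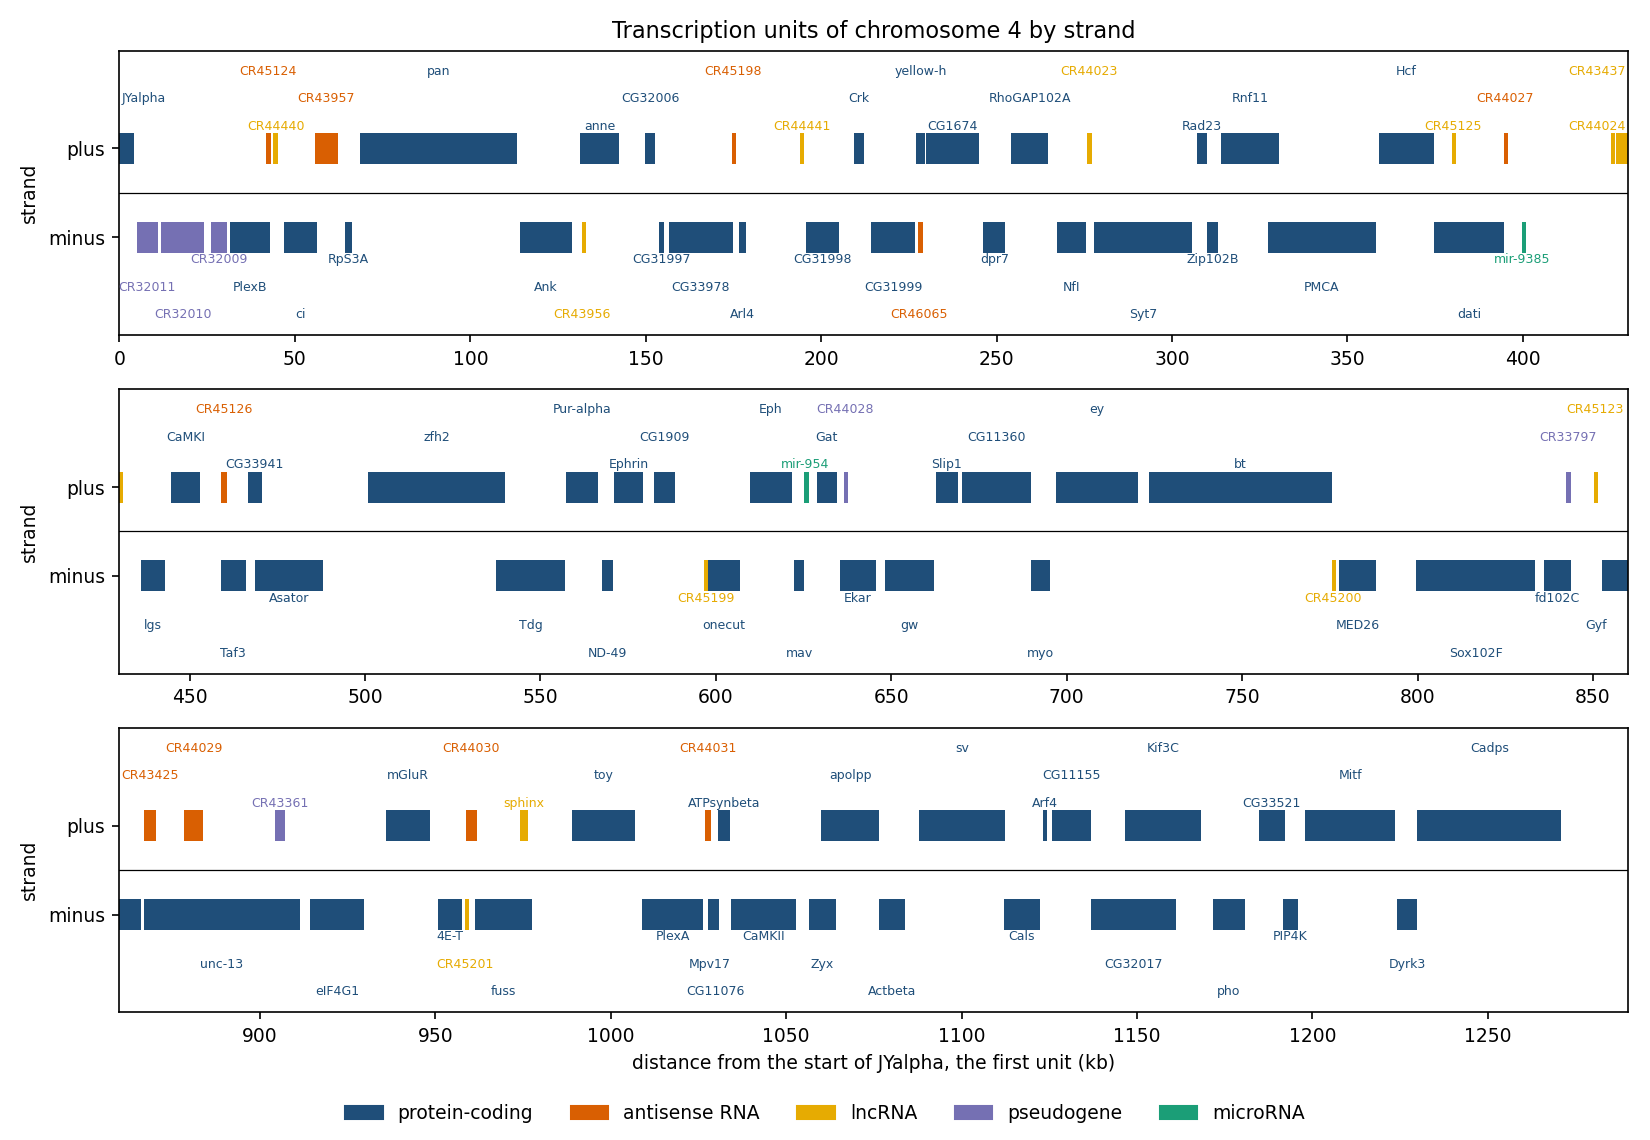
Each bar is a transcription unit of chromosome 4 (108 of the 109 are drawn), on the plus or minus strand, with distance from the start of JYalpha in kb on the x axis and colour for the RefSeq type of its first gene (bars under 1.2 kb are drawn at that width, units cut at a panel edge go on in the next panel, and names drop their asRNA or lncRNA prefix). Coding units of 687 to 52075 bp sit on both strands, and the widest stretch with no unit lies between mir-9385 and CR43437, about 400 kb from JYalpha.

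The first unit was JYalpha, which encodes an alpha subunit of the sodium and potassium pump and spanned 879 to 5039 on the plus strand. The last was Cadps, a factor for release from dense-core vesicles, at 1230837 to 1271759 on the same strand. Together the units spanned 1270881 bp, against 23169237 bp on X and 107828714 bp on the large arms. The strands were used about equally, with 55 plus and 54 minus units. The plus strand had 34 coding and 21 non-coding units, and the minus strand 45 coding and 9 non-coding units. No such split is given here for X or the large arms, and the difference was not tested. Coding units had a median of 11111 bp on the plus and 9332 bp on the minus strand.

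Units of chromosome 4 were long. The median was 6955 bp (quartiles 2507 and 14776 bp), against 2242 bp on X (1060.5 and 5453.5 bp) and 1767 bp on the large arms (882 and 4021 bp), whose single medians ran from 1624 bp on 2L to 1888.5 bp on 3R. This is 3.10 times the median of X and 3.94 times that of the large arms. For units that hold a protein-coding gene the median was 10426 bp on chromosome 4, 2681 bp on X and 2149 bp on the large arms, a ratio of 3.89 and 4.85. Of the 79 coding units of chromosome 4, 73 were longer than the coding median of the large arms and 62 longer than their upper quartile of 4937 bp. Non-coding units differed less, with medians of 934.5 bp on chromosome 4, 628 bp on X and 617.5 bp on the large arms.

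A single unit passed 50 kb on chromosome 4 (0.917%), against 75 on X (3.13%) and 233 on the large arms (1.75%). Units over 10 kb were 41 of 109 (37.6%), against 16.0% on X and 11.6% on the large arms. Units under 1 kb were 16 (14.7%), against 24.0% on X and 28.9% on the large arms. The 90th percentile was 16899.8 bp on X, which 21 of the 109 units exceeded, and 11676.9 bp on the large arms, which 34 exceeded. The longest unit measured 52075 bp on chromosome 4, 394149 bp on X and 1965857 bp on 3R, but a maximum depends on the number of units, which was far larger on those arms.

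**Figure D2:**
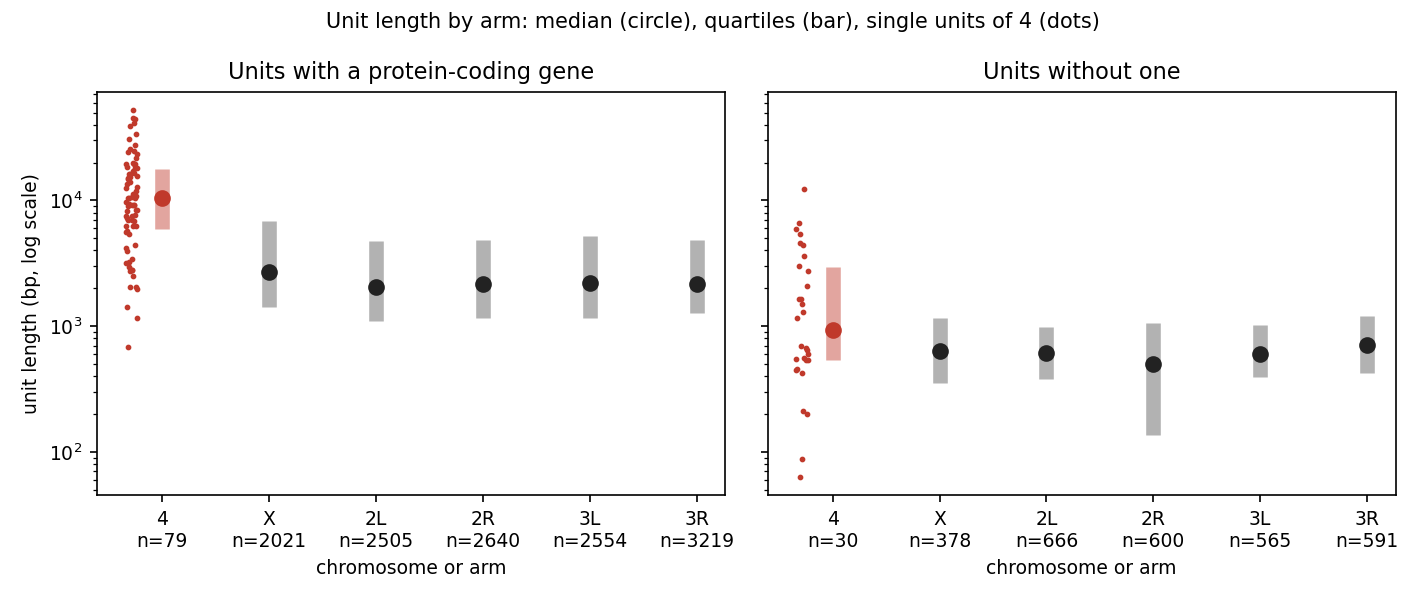
Unit length in bp on a log scale for chromosome 4, X and the 4 large autosomal arms, with circles at medians, bars from the lower to the upper quartile and dots for the single units of chromosome 4. For coding units (left) the lower quartile of chromosome 4, 5933 bp, lies above the upper quartile of each large arm (highest on 3L, 5249 bp) and below that of X (6813 bp). For non-coding units (right) the bars overlap.

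The longest unit, bt (52075 bp, plus strand, 724400 to 776474), encodes projectin, a giant protein of muscle. It was followed by pan (44945 bp), unc-13 (44508 bp), Cadps (40923 bp), zfh2 (39065 bp), Sox102F (33958 bp), PMCA (30725 bp), Syt7 (27797 bp), Mitf (25616 bp) and sv (24520 bp). These 10 units encode transcription factors (pan, zfh2, Sox102F, Mitf, sv), proteins of vesicle release (unc-13, Cadps, Syt7), a calcium pump of the plasma membrane (PMCA) and projectin. All of the 10 shortest units were non-coding. They were mir-9385 (63 bp), mir-954 (87 bp), CR43956 (201 bp), CR45201 (211 bp), CR45198 (420 bp), CR45123 (451 bp), CR44028 (455 bp), CR43437 (535 bp), CR46065 (537 bp) and CR45125 (552 bp). The shortest coding units were Mpv17 (687 bp), Arf4 (1159 bp), which encodes a small GTPase, and CG31997 (1407 bp).

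The 17 listed genes of transcription and chromatin had a median unit of 16149 bp, beside 10426 bp for all coding units of chromosome 4. Of the 17, 11 lay above that chromosome-wide median. The list leaves out the forkhead gene fd102C (7544 bp). All 17 were longer than the coding median of the large arms, which 73 of all 79 coding units (92.4%) also were. The end points of signalling pathways came in very different sizes. The unit of ci, the Gli factor of Hedgehog signalling, measured 9332 bp (47710 to 57041), that of pan, the TCF factor of Wnt signalling, 44945 bp (69326 to 114270), and that of lgs, the Wnt co-activator that works with pan, 6955 bp. Only 12284 bp and 2 units lay between ci and pan. The 3 Pax genes lay on the plus strand. The units of ey and toy, the Pax6 genes of eye development, measured 23485 and 18198 bp and lay 268551 bp apart, and that of sv, the Pax2 gene of sense organs, measured 24520 bp and began 80875 bp after the end of toy.

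Other DNA-binding factors were zfh2, a zinc-finger homeodomain protein (39065 bp), Sox102F, of the SoxD class (33958 bp), onecut, a homeodomain protein (9095 bp), NfI, of the nuclear factor I family (8195 bp), and dati, a zinc-finger protein (19966 bp). The unit of Mitf, the regulator of lysosome genes, measured 25616 bp. The unit of fuss, of the Ski and Sno family, measured 16149 bp, and that of pho, which recruits Polycomb proteins, 9160 bp. Hcf, a chromatin cofactor, had a unit of 15617 bp. Of the general factors, Taf3, a subunit of TFIID that the annotation calls bip2, measured 6942 bp, and MED26, of the Mediator complex, 10463 bp. Both were under the list's median, as were ci, lgs, onecut, NfI, pho and Hcf.

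The 13 listed signalling genes had a median of 8368 bp, below that of all coding units of the chromosome (10426 bp), which 6 of 13 exceeded. All 13 were longer than the coding median of the large arms, near the 92.4% of all coding units. The TGF-beta ligands mav, myo and Actbeta measured 2813, 5370 and 7466 bp. All 3 lay on the minus strand, with 64654 bp between mav and myo and 381275 bp between myo and Actbeta. Ephrin, the ligand, and Eph, its receptor tyrosine kinase, lay 30561 bp apart with 3 units between them, at 8368 and 11787 bp. The semaphorin receptors PlexA (17207 bp) and PlexB (11301 bp) stood on the minus strand 966116 bp apart. Inside the cell, the adaptor Crk measured 2942 bp, the kinases Dyrk3, PIP4K, CaMKII and Asator 5625, 4430, 18416 and 19586 bp, and Ank, which ties membrane proteins to the cytoskeleton, 14776 bp. In this list 10 of 13 units ran on the minus strand, as did 45 of all 79 coding units.

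The 9 synapse and nerve cell genes had a median of 12623 bp, from Gat, the GABA transporter (5660 bp), to unc-13, which primes synaptic vesicles (44508 bp). Between these lay dpr7, a cell-surface immunoglobulin protein (6206 bp), the kainate-type glutamate receptor Ekar (10426 bp), Cals, a calsyntenin (10484 bp), the metabotropic glutamate receptor mGluR (12623 bp), CaMKII, the calcium sensor kinase (18416 bp), Syt7, a synaptotagmin (27797 bp), and Cadps (40923 bp). Of the 9, 6 were longer than the coding median of chromosome 4, and all 9 were longer than that of the large arms, near the 92.4% of all coding units.

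The genes of energy, lipid and repair had a median of 3346.5 bp over 6 units, the lowest of the lists. The short ones were Rad23, of excision repair (2730 bp), Zip102B, a zinc transporter (3158 bp), ND-49, of respiratory complex I (3259 bp), and ATPsynbeta, of the ATP synthase (3434 bp). Longer ones were apolpp, the precursor of the main lipid carrier of the blood (16305 bp), and Tdg, a thymine DNA glycosylase that the annotation calls Thd1 (19523 bp with CR43958). In translation and RNA control, RpS3A, a protein of the small ribosomal subunit, measured 1983 bp, against 13469 bp for Gyf, 14063 bp for gw, the GW182 protein of microRNA silencing, and 15419 bp for eIF4G1, the scaffold of cap-dependent initiation. Over the 5 lists, 47 of 48 units were longer than the coding median of the large arms, and RpS3A was the exception. Among all 79 coding units the count was 73.

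Genes of chromosome 4 had more listed transcripts. The mean was 3.05 per gene, against 2.23 on X and 1.92 on the large arms. Among single-gene coding units it was 3.75 (77 units, median 3), against 2.32 on X (median 2) and 2.03 on the large arms (median 1). A single transcript was listed for 11 of the 77 (14.3%), against 44.3% on X and 52.7% on the large arms, and 5 or more for 20 (26.0%), against 9.75% on X and 6.68% on the large arms. The most belonged to CaMKII (12), PMCA (11) and CG1674 (10). Next came pan, Asator and anne, an ATP13A2 relative of the transport ATPases (9 each), then Crk, sv, unc-13 and Pur-alpha, a single-strand nucleic acid binder (7 each). The genes with 1 transcript were JYalpha, CG32006, yellow-h, lgs, Taf3, CG33941, mav, fd102C, Mpv17, Actbeta and Kif3C.

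Transcript number followed unit length on every set of arms, and within length classes the gaps between chromosome 4 and the other sets were smaller than over all units, in both directions against X and mostly upward against the large arms. For single-gene coding units of 5 to 10 kb, with limits at 5000 and 10000 bp, the mean was 2.91 on chromosome 4 (SD 1.66, n = 22), 3.33 on X and 2.98 on the large arms. For those of 10000 to 20000 bp it was 4.62 (SD 2.64, n = 26), 4.01 on X and 3.80 on the large arms. For those of 20000 bp or more it was 5.23 (SD 2.68, n = 13), 5.50 on X and 5.20 on the large arms. From 2000 to 5000 bp it was 2.46 (SD 1.71, n = 13), against 1.96 on X and 1.97 on the large arms, and under 2000 bp 1.67 (SD 0.58, n = 3), against 1.42 on X and 1.34 on the large arms. The mean on chromosome 4 was thus above that of the large arms in 4 of 5 classes and above that of X in 3 of 5. Class medians from the shortest to the longest were 2, 2, 2.5, 4 and 5 on chromosome 4, against 1, 2, 3, 3 and 5 on X and 1, 2, 2, 3 and 4 on the large arms, so that they were above those of the large arms in 4 classes and equal in the other. These differences were not tested. Across the 77 units Spearman's rho of length with transcript number was 0.55, against 0.58 on X and 0.52 on the large arms, as a description over genes, which are not independent replicates.

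**Figure D3:**
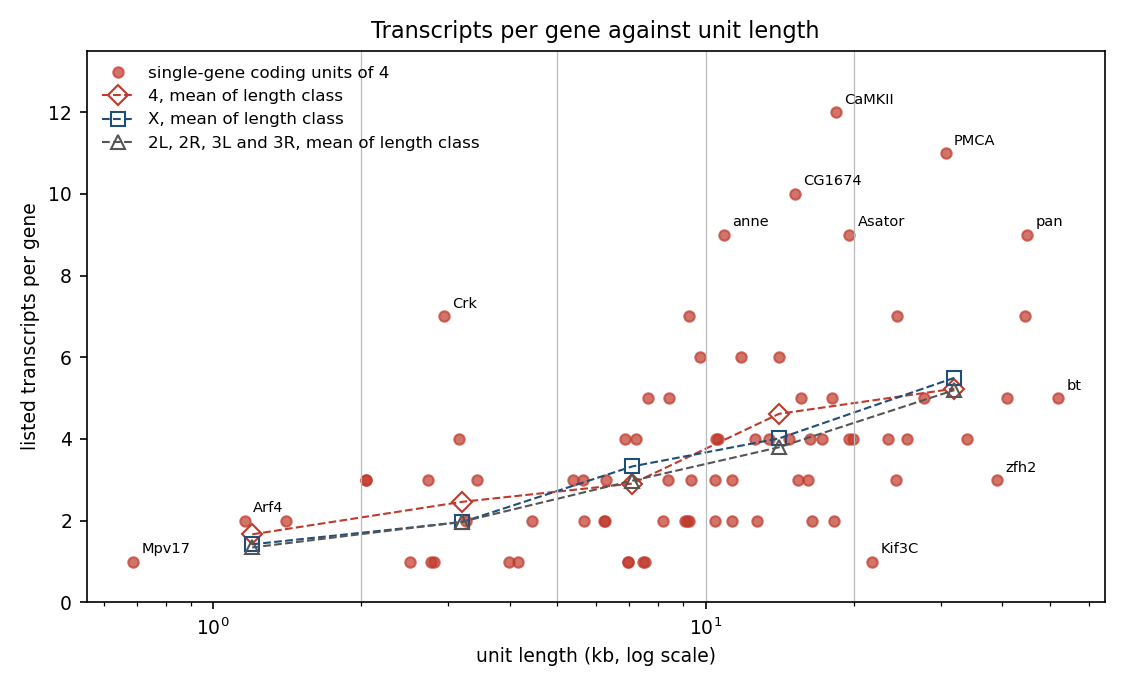
Listed transcripts per gene against unit length in kb on a log scale for the 77 single-gene coding units of chromosome 4 (filled circles), with the mean of each length class for chromosome 4, X and the 4 large arms (open symbols, drawn at a fixed place inside each class, with grey lines as class limits). The class means of chromosome 4 run from 1.67 to 5.23 and those of the other sets from 1.34 to 5.50, while CaMKII, PMCA and CG1674 stand above them and Kif3C, at 21774 bp, has 1 transcript.

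Neighbours on chromosome 4 mostly lay on opposite strands. In order of the leftmost base, 24 of 108 neighbouring pairs (22.2%) shared a strand, against 43.9% of 2398 pairs on X and 43.5% of 13336 pairs on the large arms. On each single large arm the share was between 43.1% and 44.1%. Of the other pairs on chromosome 4, 42 were a minus unit followed by a plus unit, called heads together (38.9%, against 28.1% on X and 28.2% on the large arms). The remaining 42 were a plus unit followed by a minus unit, called tails together. Both names go by order and strand alone, so nested pairs and pairs that lie far apart are counted in them. Among coding units alone 24 of 78 pairs (30.8%) shared a strand, against 43.9% on X and 43.2% on the large arms, so that the gap to the other arms was smaller when non-coding units were left out.

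**Figure D4:**
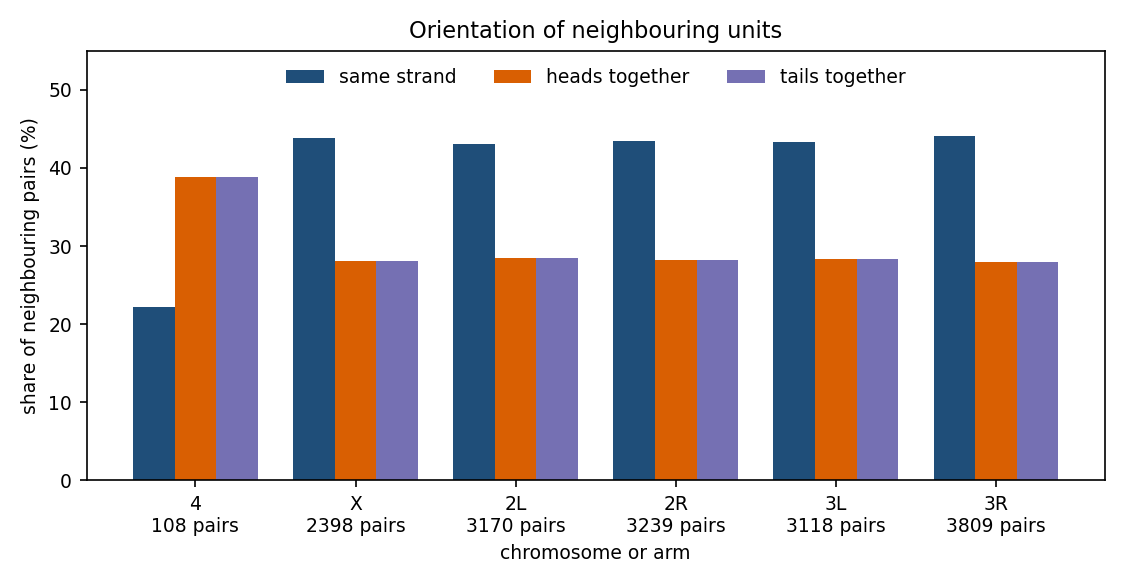
Share in percent of neighbouring pairs of units on chromosome 4, X and the 4 large autosomal arms, by strand in order of the leftmost base. Pairs are on the same strand, heads together (minus then plus) or tails together (plus then minus), and nested pairs are counted. Same-strand pairs make up 22.2% on chromosome 4 and 43.1% to 44.1% on the other arms.

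The 109 units formed 85 strand runs, a mean of 1.28 units per run, against 1.78 on X and 1.77 on the large arms. Each change of strand between neighbours starts a new run, so this mean restates the same-strand share. Runs of 1 unit numbered 65 of 85 (76.5%), against 59.5% on X and 59.4% on the large arms. Beside them there were 18 runs of 2 and 2 runs of 4, and no run of 3. Both runs of 4 lay on the minus strand. One held the pseudogenes CR32011, CR32010 and CR32009 and the receptor gene PlexB near the start of the chromosome. The other held CR45200, MED26, Sox102F and the forkhead gene fd102C. Runs of 2 included ey with bt, Ephrin with CG1909, CaMKII with Zyx, which encodes zyxin of cell adhesions, and Mpv17 with CG11076. The longest run elsewhere was 17 units on X and 102 on 2R.

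Same-strand neighbours lay far apart, while little sequence was free of units. Along a strand, the median gap between neighbouring units was 9546 bp (quartiles 2975 and 17545 bp), against 3272 bp on X and 2820.5 bp on the large arms. The closest same-strand neighbours were CR45199 and onecut (280 bp apart), yellow-h and CG1674 (301 bp) and Mpv17 and CG11076 (349 bp). Density was 85.8 units per Mb, against 103.5 on X and 123.7 on the large arms. Even so, 83.7% of the spanned bases lay in a unit of either strand, against 75.6% on X and 68.8% on the large arms, with 64.5% on 3L and 74.0% on 3R as the extremes. Bases in units of both strands were 3.80%, against 6.11% on X and 3.10% on the large arms.

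**Figure D5:**
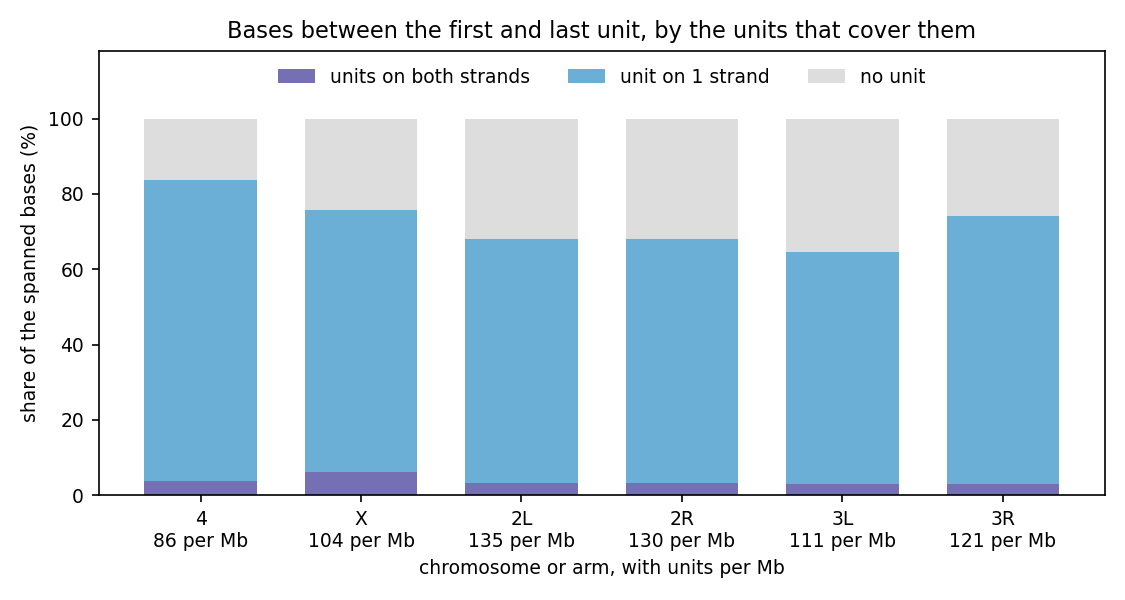
Share in percent of the bases between the first and last unit of each arm that lie in units of both strands, in a unit of 1 strand or in none, with units per Mb under each bar. Chromosome 4 has the fewest units per Mb (86) and the smallest share with no unit (16.3%, against 24.4% on X and 26.0% to 35.5% on the large arms).

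The stretches with no unit on either strand numbered 82 on chromosome 4. Their median was 1421 bp (quartiles 751 and 2980 bp), against 492 bp on X and 459 bp on the large arms, and 4 of them (4.88%) passed 10000 bp, against 7.92% on X and 8.15% on the large arms. They were thus of middling length, with few short and few long ones. The widest, of 25301 bp, ran from 400766 to 426066 between mir-9385 and CR43437. The next were 12815 bp between Asator and zfh2, 11457 bp between MED26 and Sox102F, 11235 bp between fuss and toy, and 8275 bp between CG1909 and CR45199. In bins of 100 kb the covered share was lowest from 400001 to 500000 (49.0%) and between 76.5% and 99.0% in the other 12 bins. The 99.0% belongs to the last bin, which was measured only up to the end of the last unit at 1271759. Non-coding units began in 11 of the first 11 bins, from 1 to 6 in each, and in neither of the last 2, from 1100001 on, where 11 coding units began.

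Overlap between strands involved 45 of 109 units (41.3%), against 38.6% on X and 39.5% on the large arms, in 25 pairs. With a minimum overlap of 100 bp instead of 1 bp the totals were less alike, at 40.4%, against 30.7% on X and 28.2% on the large arms. The similar totals at 1 bp hid a different make-up. Of the 30 non-coding units 16 overlapped a unit of the other strand (53.3%), against 35.7% on X and 37.7% on the large arms, while 29 of the 79 coding units did so (36.7%), against 39.1% and 39.9%. Those 16 were 10 antisense RNA genes, which overlap by their type, 3 long non-coding RNA units and 3 pseudogenes. Antisense RNA genes made up 9.01% of the genes here, against 2.58% on X and 2.78% on the large arms. The 53.3% is thus not separate from that share. Overlap of a coding unit with another coding unit was found for 17 of 79 (21.5%), against 35.2% on X and 35.4% on the large arms. Of the 25 pairs 16 joined a coding with a non-coding unit and 9 were coding on both sides. Overlaps under 100 bp were scarce on chromosome 4: of its 29 overlapping coding units 1 had no longer overlap (CG11155, 90 bp), against 170 of 791 on X and 1377 of 4357 on the large arms.

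Nested units on chromosome 4 were all non-coding. The 10 cases were CR43425, CR44029 and the pseudogene CR43361 in unc-13, CR45124 in PlexB, CR45125 in dati, CR44028 in Ekar, CR33797 in fd102C, sphinx in fuss, CR46065 in yellow-h and CR43956 in anne. sphinx is a non-coding RNA gene known for a part in male courtship. No coding unit lay wholly inside an opposite-strand unit (0 of 79), against 224 of 2021 on X (11.1%) and 856 of 10918 on the large arms (7.84%). Short coding units were few on chromosome 4. Of single-gene coding units 3 of 77 were under 2000 bp, against 751 of 1847 on X and 5022 of 10006 on the large arms. Nesting was not compared within length classes. The unit of unc-13 alone took in 3 nested units, and with its 44508 bp it formed the only block of 4 overlapping units.

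Pairs of coding units overlapped mostly by their tails, in 6 of 9 cases. These were Rnf11 with PMCA (3195 bp shared), zfh2 with Tdg (2543 bp), CG33941 with Asator (2068 bp), CG33521 with PIP4K (567 bp), sv with Cals (444 bp) and CG11155 with CG32017 (90 bp). The other 3 pairs overlapped by their heads, so that each gene's start lay inside the other unit. Kif3C, a kinesin gene, and CG32017 shared 14693 bp, the most of any pair on the chromosome, and apolpp and Zyx shared 4033 bp. ATPsynbeta and CG11076 shared 274 bp. With ci, CG33978 and dati, whose starts lay in the antisense units CR43957, CR45198 and CR44027, 9 of 79 coding units (11.4%) began inside an opposite-strand unit, against 15.8% on X and 12.4% on the large arms.

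Divergent starts were counted where a start on the other strand lay no more than 500 bp upstream, so that pairs with overlapping heads do not enter. There were 7 such pairs with 14 units (12.8%), against 22.6% of units on X and 24.9% on the large arms. The closest were mir-954 with mav (95 bp), Cadps with Dyrk3 (124 bp), CR44023 with NfI (154 bp), Pur-alpha with Tdg (162 bp), yellow-h with CG31999 (174 bp), Ephrin with ND-49 (201 bp) and CR44030 with CR45201 (241 bp). A start here is the first annotated base of a unit along its strand, also for mir-954, a unit of only 87 bp. Whether transcription begins at these bases was not examined. Of the 7 pairs 4 were coding on both sides. No pair fell between 241 and 518 bp, the distance of Slip1 from gw, so the share at 250 bp was the same 12.8%, against 11.7% on X and 12.9% on the large arms. Between 250 and 500 bp chromosome 4 had no pair.

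Joint units were rare: 2 of 109 (1.83%), against 7.34% on X and 7.20% on the large arms. RpS3A stood with snoRNA:CD-24 in a unit of 1983 bp (65225 to 67207), and Tdg with the long non-coding RNA gene CR43958 in a unit of 19523 bp (538332 to 557854). For the other 107 units the unit was a single gene, and 106 of the 107 had that gene's bounds in RefSeq. The exception was gw, whose unit reached 2495 bp further.

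The non-coding units fell into 4 kinds. The 10 antisense RNA genes all overlapped an opposite-strand unit, which their type implies, and 9 of them lay on the plus strand. They ran from CR45198 (420 bp) over CR46065, CR44027, CR45124, CR44031, CR45126, CR44030, CR43425 and CR44029 to CR43957 (6628 bp), which starts inside ci. The 12 long non-coding RNA units had a median of 661.5 bp. Of these CR43956, CR45125 and sphinx were nested, and the other 9 overlapped nothing: CR44440, CR44441, CR44023, CR43437, CR44024 (the longest, 4439 bp), CR45199, CR45200, CR45123 and CR45201. CR45200, on the minus strand, ended at 776475, the base after the end of bt. Of the 6 pseudogenes CR32011, CR32010 and CR32009 stood in a row behind JYalpha at 5937, 12415 and 4614 bp, and CR44028, CR33797 and CR43361 were nested. The microRNA units mir-954 and mir-9385 shared no base with another unit. More than 1 transcript was listed for 4 antisense RNA genes, 4 pseudogenes and 1 long non-coding RNA gene, sphinx (4).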

How the data were processed

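The table is the authors' deposited annotation of transcription units (first and last base, 1-based, strand, gene names, FlyBase identifiers). Per the file headers it was written with rtracklayer 1.48.0, and per the submitters' processing notes the build is dm6, with release and joining rule not given in the sources used here. cutadapt 2.8, STAR 2.7.4a and SAMtools 1.20 are named there too, and no output of theirs enters here. Library coverage was not analysed here. Stated lengths differed from end minus start plus 1 in 0 units, and no units of chromosome 4 overlapped on the same strand (0).

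Gene types and current symbols came from RefSeq's table for Release 6 plus ISO1 MT, which matched all 111 genes of chromosome 4 (81 by symbol, 30 by synonym). Over the annotation 63 genes did not match and had no type. Units with no protein-coding match were counted as non-coding. Values were computed in Python 3.11.15 with NumPy 2.4.6, and the geometry was tested on a simulated arm of 3618 units (11 of 11 checks passed). Named are the 10 longest, 10 shortest and 10 most transcript-rich units, all joint, non-coding, nested and divergent ones, the longest runs, the 5 widest gaps, the ends and 5 lists by role. The lists were picked by hand and do not hold every gene of a role. Members and lists were chosen with earlier results of these data known. The transcripts of a joint unit cannot be split by gene. Promoter motifs, part of the plan, were not analysed here. The coding unit left off the map is not reported here by name, although it is in every count.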

Additional observations from a re-analysis of the deposited data

How the results depend on the processing

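Chromosome 4 kept its place above or below X and the large arms in all alternatives for length, transcripts, joint units, strand runs, same-strand gap, density, cover and the non-coding share. Opposite-strand overlap did not: it was 41.3% on chromosome 4 with all units, against 38.6% on X and 39.5% on the large arms, but 21.5% with coding units only, against 35.2% and 35.4%, and 30.1% with units of at least 1000 bp, against 37.0% and 35.8%. With overlaps of at least 100 bp it was 40.4%, against 30.7% and 28.2%, with the order kept and the gap wider. Divergent starts within 250 bp were 12.8% on chromosome 4, against 11.7% on X and 12.9% on the large arms, which turned the order with X, and within 1000 bp 27.5%, against 32.5% and 33.5%. Values that moved with their order kept were the median length of coding units (10426 bp), the median of transcripts per single-gene unit (2, against 1 and 1), the gap to the next unit on either strand (1369 bp, against 489 and 457 bp), the mean cover of a strand (43.7%, against 40.9% and 36.0%) and the non-coding share of units of at least 1000 bp (16.1%, against 5.65% and 6.91%). The share of neighbours on 1 strand and non-coding units per Mb were added after the data were seen. Against single large arms, non-coding units per Mb did not keep their order. They numbered 28.5 on 2L and 24.1 on 2R, above the 23.6 of chromosome 4. Density by chromosome length and promoter motifs were not run, since no genome or promoter sequence was used here. Joint units have no value with genes as items, and the non-coding share none with coding units only. No paired analysis was possible because the annotation holds no value of any sample.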

Other observations

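The RefSeq table, which is of another date than the annotation, described the same chromosome in nearly the same terms. Whether both draw on a common source was not examined, so their match is not independent support for either. Of the 107 single-gene units of chromosome 4, 106 had exactly the RefSeq gene's bounds. The exception was gw, which ran from 649041 to 663103 in the annotation and ended at 660608 in RefSeq, where a separate coding gene, CG46466, spans 661009 to 663124. The start of gw used in the annotation thus lies 2495 bp upstream of the start in RefSeq. RefSeq genes without a unit on chromosome 4 were 3 of 114: CG46466, the long non-coding RNA gene CR46488 (1570 bp) and the pseudogene CR46405 (307 bp).

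Transcript numbers matched as well. RefSeq listed as many transcripts as the annotation for 75 of 77 single-gene coding units of chromosome 4. The other two were gw (5 in RefSeq, 6 in the annotation) and toy (3 in RefSeq, 2 in the annotation). Coding genes on chromosome 4 had a mean of 3.73 RefSeq transcripts, against 2.49 on X and 2.15 on the large arms.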
